A study of Mus musculus with 2 samples.

Results

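Sterol and fatty acid synthesis was examined through 32 genes of 55536 annotated genes in 2 libraries of mouse macrophages. The genes form a list of pathway enzymes and regulators given by name. The rule of choice uses no measured value, but the list was chosen with earlier results of these data known. By their known place in the pathway 18 were assigned to a sterol branch (7 mevalonate steps and 11 squalene and sterol steps), 8 to a fatty acid branch and 6 to control and transport. PolyA plus RNA was sequenced from macrophages cultured out of bone marrow of C57BL/6J mice, a primary cell model of tissue phagocytes. Both libraries, replicates 1 and 2, belong to 1 group: 100 ng/ml lipid A for 12 h, a wash of 12 h and 100 ng/ml lipid A again for 120 min. Lipid A, the part of bacterial lipopolysaccharide that the TLR4 receptor binds, is the agent in the description of the experiment, whereas other label fields write lipoprotein A. No genetic change is named, and age and sex were not collected. Because both libraries carry 1 donor identifier and separate animals or cultures are not stated, their spread may be partly technical. No untreated sample was analysed here, so levels are described and no condition is compared with another.

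Cholesterol is built from acetyl-CoA through mevalonate, farnesyl pyrophosphate, squalene and lanosterol, while fatty acids are built from malonyl-CoA and then lengthened and desaturated. Many of these enzymes are transcribed under the SREBP factors, membrane-bound proteins made by Srebf1 and Srebf2. The escort protein SCAP carries them to the Golgi for cleavage when membrane sterol is low, and the INSIG proteins hold them in the endoplasmic reticulum when it is high. In macrophages the pathway supplies membrane lipid and is known to be reshaped by Toll-like receptor signalling.

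Replicate 1 held 45377715 expected counts, the estimated reads per gene, and replicate 2 held 32112416. All 8 macrophage markers checked, such as Lyz2, Adgre1 and Csf1r, reached 10 TPM in both libraries. TPM is the deposited abundance corrected for transcript length and scaled to a fixed total, so genes can be compared. Adipocyte markers (4 of 4) and hepatocyte markers (2 of 2), which mark tissues known for high lipid synthesis, had 0 reads in both, and all T cell, B cell and stromal markers were under 1 TPM. The 7 neutrophil markers summed to 61.1 TPM in replicate 1 and 5.57 TPM in replicate 2. Of these, 4 were under 1 TPM in both libraries and Ly6g had 0 reads. In such bulk RNA fewer cells of a type and less RNA per cell cannot be told apart.

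All 32 genes had reads in both libraries, most of them at a moderate level. In both libraries 21 of the 32 genes stood at 10 TPM or more, as did 27.2% of all protein-coding genes. The sterol branch contributed 14 of its 18 genes, control and transport 4 of 6 and the fatty acid branch 3 of 8. Fads2 and Insig2 reached 10 TPM in 1 library only. No gene was under 1 TPM in both libraries, though Elovl6 and Scd1 were in replicate 1. The 32 genes summed to 886 TPM in replicate 1 and 969 TPM in replicate 2. The median member stood at 17.6 and 19.2 TPM, near the median of 18.2 TPM over the 9773 detected protein-coding genes.

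**Figure D1:**
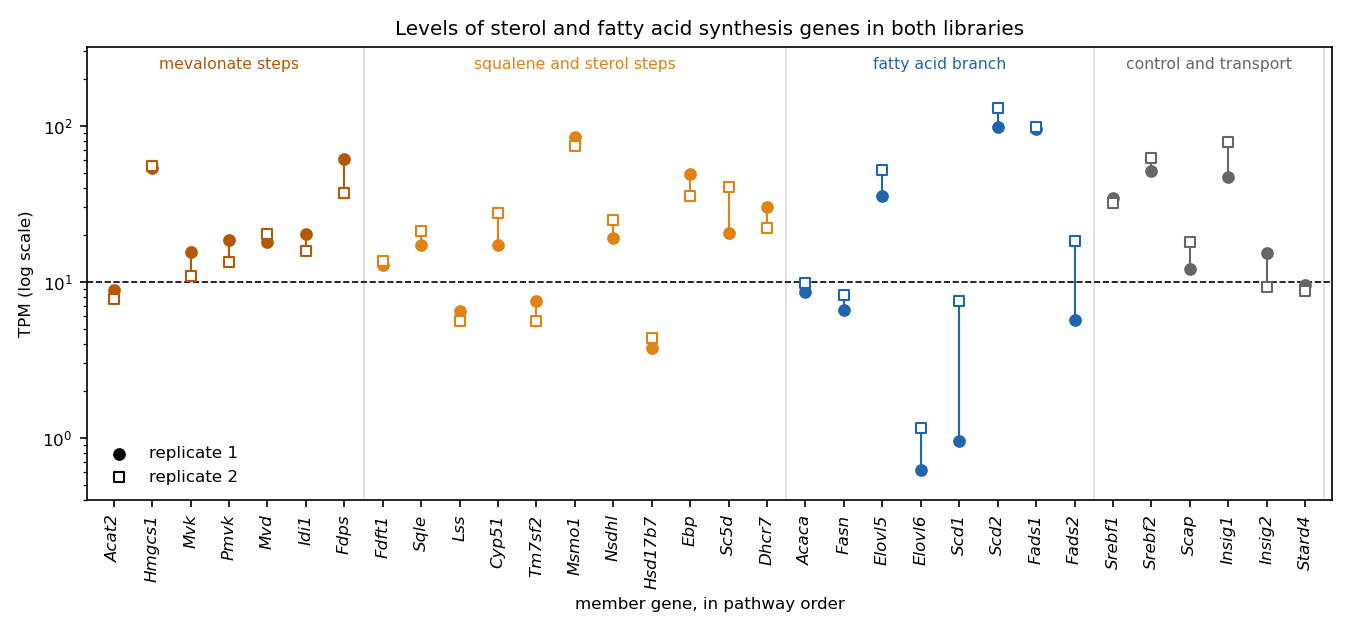
TPM (log scale) of the 32 genes in pathway order, with filled circles for replicate 1 and open squares for replicate 2, a line joining both libraries of a gene, and a dashed line at 10 TPM. Sterol genes sit between 3.79 and 84.9 TPM, whereas fatty acid genes spread from 0.62 TPM (Elovl6) to 129 TPM (Scd2).

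Hmgcs1 and Fdps led the mevalonate steps. Hmgcs1, which joins acetoacetyl-CoA and acetyl-CoA into HMG-CoA, was at 53.3 TPM in replicate 1 and 55.0 TPM in replicate 2 (54.1 ± 1.15, SD, n = 2). Fdps, which makes farnesyl pyrophosphate, was at 61.7 and 37.3 TPM (49.5 ± 17.2). Together they held 58.7% and 57.6% of the summed TPM of the 7 genes. Between them in the pathway, the 2 kinases and the decarboxylase of mevalonate were lower: Mvk at 15.5 and 10.9 TPM, Pmvk at 18.4 and 13.4 TPM, and Mvd at 18.01 and 20.1 TPM. Idi1, the isomerase that makes the second building block of isoprenoids, was at 20.3 and 15.7 TPM. Acat2, the cytosolic thiolase that forms acetoacetyl-CoA, was the lowest of the segment at 8.84 and 7.77 TPM. The 7 genes thus spanned 6.52-fold in mean level.

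Promoter windows from RefSeq (build GRCm38.p6, 250 bases before to 50 after a start) were found for 25 of the 32 genes, in 33 windows. Fdps, Fdft1, Sqle, Scd1, Scd2, Fads1 and Stard4 had none. Both strands were searched for TCACNCCAC, a core of the sterol regulatory element bound by SREBP factors, and for CCAAT, the box bound by NF-Y, a known partner of SREBP. TCACNCCAC was found in 1.24% of all 32851 windows and in 1 of the windows examined here, that of Hmgcs1, starting 137 bases before the start. CCAAT was found in 37.4% of all windows, in 14 of 18 sterol windows, in 2 of 5 fatty acid windows and in 5 of 10 control windows. Counted by gene, CCAAT was found for 41.1% of all genes, for 14 of 15 sterol genes (all but Acat2), 2 of 5 fatty acid genes and 4 of 5 control genes. Some of these windows lie away from the start of the transcript with most of the gene's TPM. For Pmvk the window with CCAAT belongs to the start at 89454541, that of Pmvk-204 (0 TPM in both libraries), while Pmvk-201 begins at 89459118. For Insig2 it belongs to 121332589, that of Insig2-202 (0 TPM in both libraries), while Insig2-201 begins at 121328024. For Dhcr7 it belongs to 143830214, while Dhcr7-202 begins at 143829626. At least 2 boxes occurred in 11.7% of all windows, in 9 of 18 sterol windows, in 2 of 5 fatty acid windows and in 1 of 10 control windows. Hmgcs1 is shown because it alone holds both motifs and Mvk because its 5 boxes were the most found, each as the 200 bases before the start. Hmgcs1 lies at chr13:119690151-119690350 on the plus strand and Mvk at chr5:114444069-114444268 on the plus strand. Capitals mark TCACNCCAC or CCAAT on either strand, so that CCAAT on the minus strand reads ATTGG.
Hmgcs1: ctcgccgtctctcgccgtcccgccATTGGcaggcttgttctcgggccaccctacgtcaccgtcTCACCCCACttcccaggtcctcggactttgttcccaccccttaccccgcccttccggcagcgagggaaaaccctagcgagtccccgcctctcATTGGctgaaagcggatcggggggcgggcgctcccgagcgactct
Mvk: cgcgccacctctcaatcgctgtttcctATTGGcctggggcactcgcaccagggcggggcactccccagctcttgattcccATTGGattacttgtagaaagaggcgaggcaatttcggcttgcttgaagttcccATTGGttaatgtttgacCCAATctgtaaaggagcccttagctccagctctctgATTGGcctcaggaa
These matches describe letters in a window of fixed length, and a window without a match says nothing of the factors.

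The squalene and sterol steps ranged over 19.5-fold in mean level. Msmo1, the methylsterol monooxygenase, was at 84.9 and 73.9 TPM (79.4 ± 7.80, SD, n = 2), the third highest of the 32. Ebp, which shifts the double bond of the sterol ring, was at 48.7 and 35.5 TPM, and Sc5d, the desaturase acting after it, was at 20.7 and 40.6 TPM. Dhcr7, which reduces the product of that step, was at 30.2 and 22.0 TPM. Nsdhl, the dehydrogenase that works with Msmo1, was at 19.2 and 25 TPM. Its partner in the same step, the ketoreductase Hsd17b7, was far lower at 3.79 and 4.36 TPM, the lowest value of the sterol branch. The 2 enzymes that lead from squalene to lanosterol also differed: Sqle, the squalene epoxidase, was at 17.1 and 21.2 TPM, while the cyclase Lss was at 6.53 and 5.57 TPM. Fdft1, the squalene synthase that commits farnesyl pyrophosphate to sterols, was at 12.8 and 13.5 TPM. Cyp51, the lanosterol demethylase, was at 17.2 and 27.5 TPM, and Tm7sf2, a sterol C14-reductase, was at 7.55 and 5.59 TPM. Thus Lss, Tm7sf2 and Hsd17b7, with Acat2, were the sterol genes under 10 TPM in both libraries.

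In the fatty acid branch both enzymes of chain synthesis were under 10 TPM, and the highest genes were desaturases and an elongase. Acaca, the carboxylase that makes malonyl-CoA, was at 8.59 and 9.85 TPM, and Fasn, the synthase that makes palmitate, was at 6.61 and 8.27 TPM. Downstream of them, Scd2, a stearoyl-CoA desaturase, was at 98.6 and 129 TPM (114 ± 21.7, SD, n = 2), the highest mean of the 32 and above 94.6% of protein-coding genes. Fads1, the delta-5 desaturase of polyunsaturated fatty acids, was at 95.3 and 98.2 TPM (96.7 ± 2.10), with little difference between the libraries. Elovl5, which lengthens polyunsaturated chains, was at 35.4 and 52.4 TPM. Scd2 and Fads1 alone held 77.0% and 70.0% of the branch's summed TPM, and for the sterol branch the leading pair, Msmo1 and Hmgcs1, held 29.7% and 29.6%.

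Close relatives within the branch were far apart in level. Scd1, the desaturase isoform known from liver and fat, was at 0.96 TPM in replicate 1 and 7.56 TPM in replicate 2. Scd2 (chromosome 19, 44293674 to 44306864) was thus 103 times as abundant as Scd1 (44394455 to 44407879) in replicate 1 and 17.1 times in replicate 2, and the genes lie 87590 bases apart. Fads2, the delta-6 desaturase, was at 5.68 and 18.3 TPM. Its neighbour Fads1, 81141 bases away on the same chromosome, was 16.8 and 5.36 times as abundant. Elovl6, which lengthens palmitate, was at 0.62 and 1.16 TPM, and Elovl5 was 57.0 and 45.2 times as abundant. In all 3 pairs the same gene led in both libraries, and the size of the ratio differed between libraries most for Scd2 over Scd1.

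Between the branches, the median sterol gene was higher and the fatty acid branch spanned a wider range. The median of log2(TPM + 1) over sterol genes exceeded that over fatty acid genes by 1.17 in replicate 1 and by 0.58 in replicate 2, which have an SD of 0.41 (n = 2). With each gene's log2 level first averaged over the libraries, the difference of medians was 0.90. In TPM the medians were 18.2 and 20.7 for the sterol branch and 7.60 and 14.1 for the fatty acid branch. The mean level went the other way, with 25.8 and 24.2 TPM per sterol gene and 31.5 and 40.6 TPM per fatty acid gene. Summed over members, the sterol branch held 465 and 435 TPM (450 ± 21.1) and the fatty acid branch 252 and 325 TPM (288 ± 51.9). From lowest to highest mean the fatty acid branch spanned 128-fold against 19.5-fold for the sterol branch. Genes of a branch are not replicates and no test was made, so these values are a description.

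Regulators of the pathway were at levels like those of the enzymes. Srebf2, the factor best known for sterol genes, was at 51.7 and 61.7 TPM (56.7 ± 7.12, SD, n = 2), and Srebf1, best known for fatty acid genes, at 34.7 and 31.9 TPM (33.3 ± 1.99). Srebf2 was 1.49 and 1.94 times as abundant as Srebf1, and exceeded it by less in the second deposited quantification described below. Scap, the sterol-sensing escort, was at 12.1 and 17.95 TPM. Insig1, itself a known SREBP target, was at 46.6 and 78.9 TPM. Insig2, the second retention protein, was at 15.2 and 9.23 TPM. Insig1 exceeded Insig2 in both libraries, by 3.07 times in replicate 1 and 8.55 times in replicate 2. Stard4, a cytosolic sterol carrier, was at 9.54 and 8.76 TPM.

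Both libraries were then compared gene by gene. The ratio of replicate 2 to replicate 1 was taken from expected counts scaled by TMM, a normalization that trims extreme genes, for 12552 genes with a mean count of at least 10, and all 32 members passed. Over all tested genes the median log2 ratio was −0.02 and the median gene was 1.29-fold apart. Replicate 2 was at least 1.5-fold higher for 6 members, namely Cyp51, Sc5d, Elovl6, Scd1, Fads2 and Insig1, against 13.8% of all tested genes. Replicate 1 was at least 1.5-fold higher for 1 member, Fdps, against 16.4% of all tested genes. The other 25 were closer than that. With counts rounded to whole numbers, the exact binomial test (two-sided, Benjamini-Hochberg adjusted over all tested genes, counting error only) compared these libraries and put 11 members higher in replicate 1 (32.3% of all tested genes) and 13 higher in replicate 2 (32.5%). Read against these shares, the counts of members higher in replicate 2 and the counts from the binomial test are near the background, and the single member in the other direction is below it.

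The largest library differences lay in the fatty acid branch. Scd1 had 94.0 expected counts in replicate 1 and 460 in replicate 2, a log2 ratio of 2.86 (exact 95% interval 2.54 to 3.20, counting error only) and a 7.25-fold difference. Fads2 had 511 and 1118 expected counts, a log2 ratio of 1.70 (1.55 to 1.86). Elovl6 rested on 66 and 85 expected counts, and its log2 ratio of 0.93 had an interval of 0.46 to 1.42. By counts 7 of 8 fatty acid genes were higher in replicate 2. The share of all tested genes higher in replicate 2 was not computed, so this count cannot be read as a trait of the branch. Scaled by library totals instead, Acaca and Fads1 fell just below 0. The median log2 ratio of the branch was 0.49, or 0.40 without Scd1. Fasn was the exception, with 1289 and 763 expected counts and a log2 ratio of −0.18, while its TPM was higher in replicate 2. The smallest differences of the branch were those of Acaca (0.06) and Fads1 (0.07).

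Sterol genes moved both ways between the libraries. Replicate 1 had the higher value for 10 of the 18 and replicate 2 for 8, among them Hmgcs1, which fell just below 0 with library totals. For such counts by direction the share over all tested genes was not computed. The median log2 ratio of the sterol genes was −0.16. The mevalonate steps had a median of −0.25, against −0.02 over all tested genes, and 5 of 7 genes were higher in replicate 1. Among these, Fdps, Idi1 and Acat2 share part of their sequence with other genes, as given below. Fdps at −0.67 was the lowest of all members. The squalene and sterol steps had a median of 0.11 and ran from −0.56 (Tm7sf2) to 0.85 (Sc5d), with Cyp51 at 0.68. In control and transport Insig1 was at 0.78 and Insig2 at −0.40. Hmgcs1 (0.06), Fdft1 (0.11), Lss (−0.11), Srebf2 (0.05), Stard4 (−0.08), Acaca, Acat2 (−0.20) and Hsd17b7 (0.21) did not pass the exact binomial test. The neutrophil markers S100a8, S100a9 and Ngp, at 25.8, 26.4 and 7.99 TPM in replicate 1 and 3.72, 1.18 and 0.40 TPM in replicate 2, were at least 1.5-fold higher in replicate 1. Of the macrophage markers, Fcgr1 was at least 1.5-fold higher in replicate 1 (726 and 380 TPM) and Cd14 in replicate 2 (476 and 903 TPM). The part of these marker differences in the members' values was not tested.

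**Figure D2:**
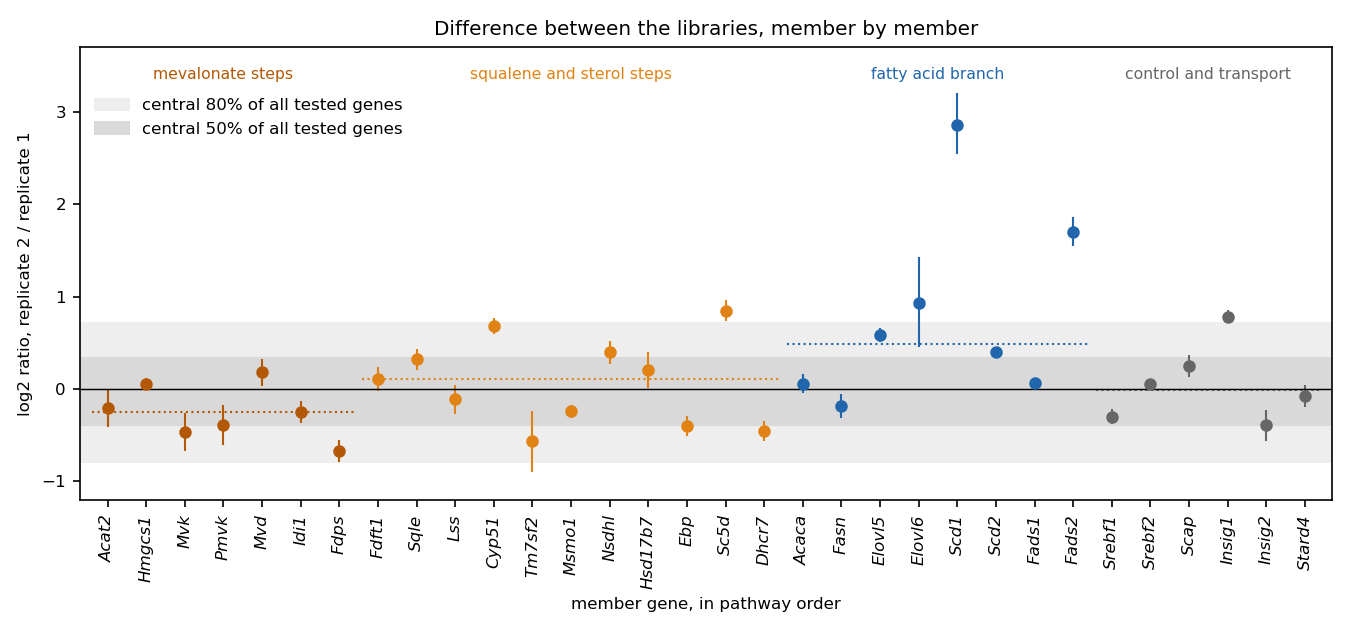
Log2 ratio of replicate 2 to replicate 1 for each gene (points, TMM-scaled expected counts) with exact 95% intervals for counting error (bars), the median of each pathway segment (dotted lines) and the central 50% and 80% of all tested genes (dark and light bands). Scd1 at 2.86 and Fads2 at 1.70 lie far above both bands, and Fdps at −0.67 is the lowest point.

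The deposited intervals separated the libraries for part of the members. The gene table carries an interval on each TPM, and those of both libraries were apart for 16 members and overlapped for 16. The share over all genes was not computed, so this count cannot be read as a trait of the members. For Scd1 they ran from 0.68 to 2.39 TPM and from 5.51 to 11.7 TPM, with no overlap. For Insig2 they overlapped widely, from 15.3 to 27.4 TPM and from 11.1 to 29.2 TPM, and both deposited TPM values lay below their own interval. In at least 1 library the TPM lay outside its own interval for 6 members: below it for Insig2, Lss and Scap, and above it for Scd2, Fads1 and Insig1. Genes outside the list, such as Lyz2 and Pgd, also lay outside their intervals. For this count too the share over all genes was not computed.

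Transcript tables showed which forms made up the gene levels. The 32 genes had 190 annotated transcripts, and the leading one was protein coding for all 32. It held under 90% of the gene's TPM in at least 1 library for 19 genes. Hmgcs1 was split between Hmgcs1-201 (63.7% and 63.2%) and Hmgcs1-202, both annotated with 520 codons, and Mvk-201 held 45.9% and 46.2%. Msmo1-201 held 83.03% and 74.6%, and a noncoding transcript, Msmo1-206, 16.2% and 24.6%; in the second deposited quantification, made from reads without an alignment file, Msmo1-201 held 91.9% and 94.3% and Msmo1-206 was close to 0. Scd2 consisted of 1 transcript, Scd2-201, in both libraries, but in the second quantification this transcript held 70.3% in replicate 2. Insig1-201 held 98.8% and 99.7% of its gene, and Insig2-201 held 72.2% and 91.8%. Scd1-201 held 64.6% and 61.4%, with the short fragment Scd1-202 at 0 and 28.4%.

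Srebf1 was read from separate start sites. The gene is known for alternative first exons, of which the upstream one gives the form with the longer activation domain. Srebf1-201, from the upstream start with 1134 annotated codons, was at 19.7 and 14.8 TPM. Srebf1-207, whose start lies 10139 bases downstream and which has 1022 annotated codons, was at 9.53 and 8.01 TPM. The upstream form was 2.07 and 1.85 times as abundant, but in the second quantification the ratios were 1.26 and 0.943, so the order of the 2 forms in replicate 2 depends on the table. The 200 bases before 2 of the RefSeq starts are shown, because the forms differ in start site, at chr11:60220628-60220827 (upstream) and chr11:60210472-60210671 (downstream), both on the minus strand. Capitals mark CCAAT on either strand, which of these 2 stretches only the downstream one holds.
Srebf1 upstream start: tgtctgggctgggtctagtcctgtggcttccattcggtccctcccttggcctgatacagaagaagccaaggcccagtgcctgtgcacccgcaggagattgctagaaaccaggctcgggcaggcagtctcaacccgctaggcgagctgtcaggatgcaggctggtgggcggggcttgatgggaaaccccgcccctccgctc
Srebf1 downstream start: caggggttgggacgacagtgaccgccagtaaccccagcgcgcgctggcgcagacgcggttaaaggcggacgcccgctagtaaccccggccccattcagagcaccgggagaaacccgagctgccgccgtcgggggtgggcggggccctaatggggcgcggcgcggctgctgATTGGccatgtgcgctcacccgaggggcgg
The remaining RefSeq start, at 60222581, lies farther upstream, and its window holds CCAAT starting 166 bases before it; the noncoding Srebf1-204 begins there, at 0.33 and 3.41 TPM. For Srebf1-201 and Srebf1-207 the start sites in RefSeq and in the GENCODE annotation used for the counts differ by some bases, so the windows belong to the RefSeq starts.

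Transcripts annotated with a retained intron, which do not encode the full protein, held over 10% of the TPM of 5 members in at least 1 library. For Srebf2 their share was 16.6% and 30.5%, so the leading coding transcript Srebf2-201 was at 42.8 and 40.6 TPM while the gene total was higher in replicate 2. For Scap the share was 0.08% and 24.0%, nearly all of it from Scap-202, a transcript of 358 bases, and Scap-201 was at 10.9 and 12.8 TPM. For Fasn it was 35.3% and 59.1%, and the coding forms were Fasn-201, at 2.99 and 3.38 TPM, and Fasn-205, at 1.29 and 0 TPM. Ebp had 15.7% and 14.3%, and Lss had 7.98% and 12.6%. In the second quantification Srebf2 had 17.7% and 29.5%, Scap 0.10% and 33.4%, and Fasn 3.29% and 22.7%. There Ebp had 20.5% and 6.69% and Lss 30.7% and 11.8%, so that for Lss the higher share was in the other library. In the first table this share of Fasn came from Fasn-203 and Fasn-202, of which the longer has 976 bases against 10050 for Fasn-201.

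**Figure D3:**
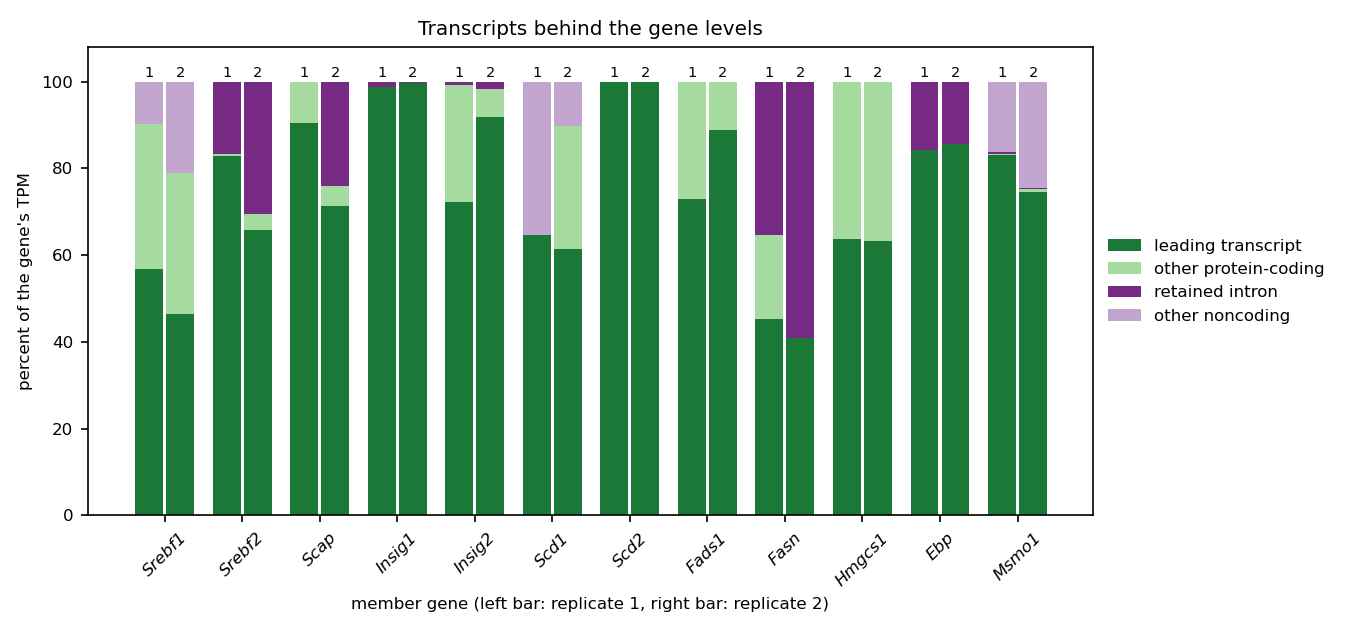
Percent of each gene's TPM in its leading transcript (dark green), other protein-coding transcripts (light green), retained-intron transcripts (dark purple) and other noncoding transcripts (light purple) for 12 genes, with the left bar for replicate 1 and the right bar for replicate 2. Retained-intron transcripts reach 30.5% for Srebf2 and 59.1% for Fasn in replicate 2.

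The second quantification gave somewhat lower levels for most members. For genes of at least 10 TPM it gave a median of 0.857 (replicate 1) and 0.938 (replicate 2) times the first TPM. In replicate 1 the same leading transcript was found for 31 members, the exception being Fasn, for which Fasn-205 led in place of Fasn-201. In replicate 2 further exceptions were Mvk and Srebf1. There Mvk-202 held 42.0% against 35.8% for Mvk-201, and Srebf1-207 held 26.8% against 25.2% for Srebf1-201. Fasn was at 4.11 and 4.99 TPM in the second quantification and Scd2 at 79.7 and 147 TPM. Of this Scd2 level the coding Scd2-201 made up 79.7 and 103 TPM. Scd2-202, annotated for nonsense-mediated decay, made up 0 and 43.5 TPM. Srebf1 was at 36.8 and 42.0 TPM and Srebf2 at 42.0 and 55.5 TPM there. The Srebf1 total was thus higher in replicate 2, unlike in the gene table. Coding forms held 90.1% and 78.9% of Srebf1 in the first transcript table. In the second quantification Srebf1-201 was at 13.8 and 10.6 TPM and Srebf1-207 at 11.0 and 11.2 TPM. Of the noncoding forms there, Srebf1-204 was at 1.21 and 4.24 TPM, Srebf1-208 at 0 and 8.20 TPM and Srebf1-210 at 9.08 and 6.18 TPM. Scd1, at 1.00 and 7.60 TPM, was nearly the same as in the gene table. Fads1-201 held 98.7% and 99.3% of its gene there, against 73.0% and 88.8% in the first transcript table.

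**Figure D4:**
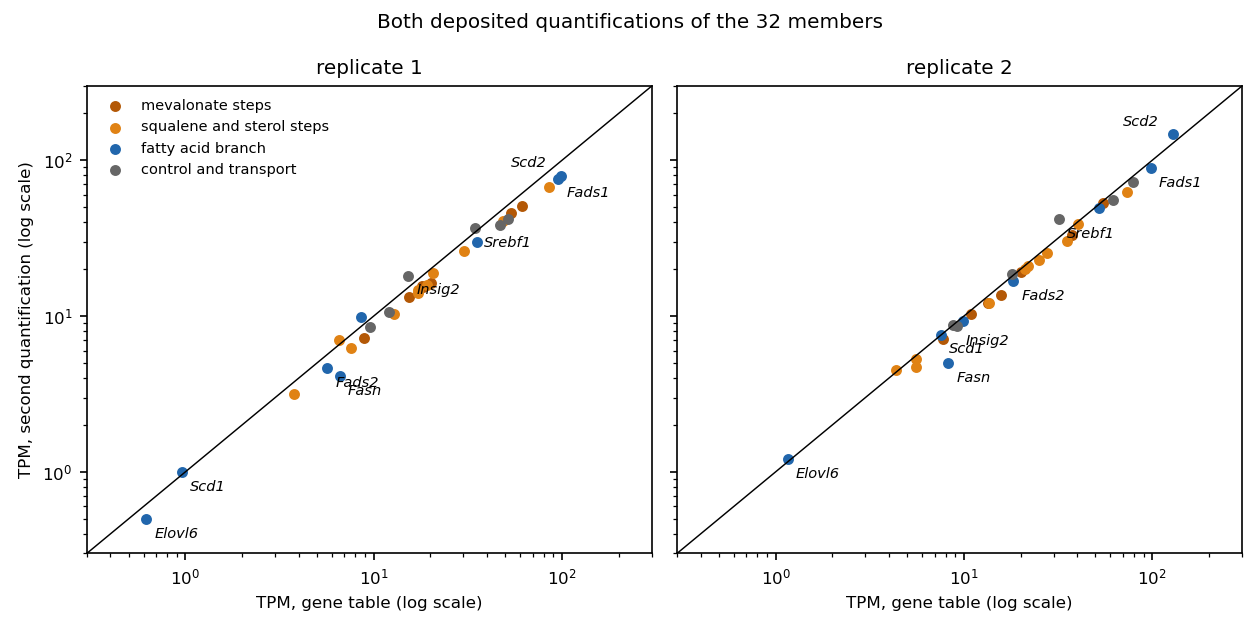
TPM of the 32 genes in the gene table (horizontal, log scale) against TPM in the second quantification summed to genes (vertical, log scale), for replicate 1 (left) and replicate 2 (right), with the line of equal values and colours for the pathway segments. Most points lie just under the line, Srebf1 lies above it in both and Fasn, at 8.27 and 4.99 TPM in replicate 2, lies farthest under it.

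Shared sequence limits some of these levels. Whether counting used strand is not given, and 11 members share exon bases with another annotated gene. For 2 of them the partner was above 10 TPM. Fdft1 shares 774 exon bases with Ctsb, a lysosomal protease gene on the opposite strand at 9033 and 5627 TPM, and Tm7sf2 shares 532 with Vps51 on the same strand, at 49.2 and 38.0 TPM. The value of Fdft1 is uncertain for this reason, and so is that of Tm7sf2 in the part outside its leading transcript. By sequence, 11 members share at least 5% of the 31-base words of their leading transcript with another gene. For Fdps this was 85.7%, mostly with Gm43738, which was listed at 0 TPM. Acaca shared 59.9% with Gm5182 (0.18 and 0.17 TPM) and Acat2 shared 50.5% with Acat3 (0.07 and 0.03 TPM). Fdft1 shared 47.5% of its words, and 26.2% of its words were shared with Ctsb. Tm7sf2-201, the leading transcript of Tm7sf2, shared 0%. Idi1 shared 32.2%, most of it with Gm13502, which was at 0 TPM in replicate 1 and 4.26 TPM in replicate 2. The part of this in the library ratio of Idi1 was not tested. Scd1 and Scd2 shared 8.45% and 6.86%, mainly with Scd3, which had 0 and 1 expected counts.

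Genes on both sides of the pathway were expressed as well. Of 7 genes supplying acetyl-CoA and NADPH, 5 reached 10 TPM in both libraries. Pgd and G6pdx, the NADPH-yielding dehydrogenases of the pentose phosphate pathway, were at 202 ± 2.64 and 163 ± 29.1 TPM (SD, n = 2). Slc25a1, the mitochondrial citrate carrier, was at 102 ± 12.0 TPM and Idh1 at 71.1 ± 12.5 TPM. In this list only Me1, malic enzyme, differed at least 1.5-fold, at 1.33 and 4.10 TPM. All of these supply genes except Me1 had a higher mean TPM than Acaca and Fasn.

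Of 15 other genes of elongation and desaturation, 6 reached 10 TPM in both libraries and 7 were under 1 TPM in both. Elovl1, the elongase of very long saturated chains, led at 178 ± 11.8 TPM (SD, n = 2). The shared reductases of the elongation cycle, Tecr and Hsd17b12, were at 151 ± 31.5 and 147 ± 1.20 TPM, and the dehydratase Hacd4 at 102 ± 5.23 TPM. Those genes serve chains of many lengths, and all 4 were above Elovl5 and Elovl6. At least 1.5-fold differences were found for Mcat, higher in replicate 1, and for Elovl2, Hacd1 and Scd4, higher in replicate 2 at means of 0.16, 1.96 and 0.25 TPM. Mcat passed the exact binomial test, and the other three did not.

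Isoprenoid branches that leave the pathway at farnesyl pyrophosphate were lower, with 6 of 10 genes at 10 TPM or more in both libraries. Nus1 and Dhdds, the subunits that make dolichol chains, were at 28.1 ± 1.01 and 24.2 ± 5.13 TPM (SD, n = 2). Fnta, the shared subunit of protein prenyltransferases, was at 24.2 ± 3.22 TPM, and Coq2, of ubiquinone synthesis, at 17.4 ± 1.55 TPM. None of the 10 was at least 1.5-fold apart between the libraries. All 10 were below the mean level of Fdps.

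Of 10 genes for SREBP processing and degradation 7 reached 10 TPM in both libraries. Rnf145 was at 41.7 ± 4.24 TPM (SD, n = 2), and the membrane proteins Erlin1 and Erlin2 at 27.7 ± 6.87 and 23.8 ± 3.71 TPM. Both proteases that release SREBP were above 10 TPM, with Mbtps1 at 13.3 and 12.7 TPM and Mbtps2 at 13.0 and 16.9 TPM.

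In the LXR and oxysterol arm, which answers to surplus sterol, 6 of 8 genes reached 10 TPM in both libraries. Soat1, which esterifies cholesterol, was at 263 and 286 TPM, above each of the 32 synthesis genes. Nr1h3, the LXR alpha receptor, was at 196 and 122 TPM and was at least 1.5-fold higher in replicate 1. Abcg1, a sterol exporter, was at 106 ± 2.53 TPM and Nr1h2, LXR beta, at 67.3 ± 5.23 TPM (SD, n = 2). Ch25h, which makes 25-hydroxycholesterol, was at 3.81 and 13.3 TPM and was at least 1.5-fold higher in replicate 2.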

How the data were processed

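PolyA plus RNA was measured in 2 libraries of 1 group. The deposited expected counts, estimated reads per gene or transcript that need not be whole, and the deposited TPM and FPKM values came from transcriptome alignments to build mm10 with GENCODE M21, per the notes deposited with each sample. The deposited transcript table also gives each transcript's percent of its gene. The deposited interval bounds on TPM were used as given and treated as a signal in TPM units. A second deposited table, with estimated counts and TPM from the reads without an alignment step, was added up per gene. Program names and strand: not given in the sources used here.

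Of 81881 rows, 26345 (tRNA, spike-in and phiX rows, 0.0788% and 0.0771% of counts) stayed out of the tests. Ratios used a prior of 0.5 counts, TMM factors from edgeR 4.0.16 and genes whose expected counts averaged at least 10. The exact binomial test used counts rounded to whole numbers, Benjamini-Hochberg adjustment over 12552 genes and a threshold of 0.05. It was tried on simulated counts that carried counting error only, which cannot show how it behaves under any other spread. R 4.3.3, Python 3.11.15 and scipy 1.17.1 were used. A floor of 3 counts is 0.0661 and 0.0934 CPM. Such intervals and floors leave out amplification, because reads of 1 molecule can be copies.

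Members and added lists were chosen with earlier results of these data known. All 32 members are named with both values. Of each added list the 4 genes with the highest mean TPM are named, except 1 that is not reported here, and transcripts are named for up to 12 of the genes whose leading transcript is under 90% and for Srebf1, Srebf2, Scd1, Scd2, Insig1 and Insig2. Promoters are printed where TCACNCCAC was found. The promoters of Mvk and Srebf1, the transcript genes plotted and further genes of the added lists (Me1, Mcat, Elovl2, Hacd1, Scd4, Mbtps1, Mbtps2 and Ch25h) were picked once values had been seen. As alternatives, size factors from DESeq2 1.42.0, library totals, TPM ratios, other thresholds, filters and pseudocounts, FPKM, posterior mean TPM, the second quantification and each replicate alone were tried.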

Additional observations from a re-analysis of the deposited data

How the results depend on the processing

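Members at 10 TPM or more in both libraries numbered 21, and 12 at a threshold of 20 TPM. With either replicate left out, 22 members reached 10 TPM. The median log2 difference between sterol and fatty acid genes, 0.90, fell to 0.34 with means over members in place of medians and ran from 0.58 to 1.17 with 1 replicate left out. The sterol sum of 450 TPM was 393 in the second quantification, 304.5 in FPKM, 370.5 without Msmo1 and 435 to 465 with 1 replicate left out. The fatty acid sum of 288 TPM was 194.5 in FPKM, 174 without Scd2 and 252 to 325 with 1 replicate left out. Of 7 members at least 1.5-fold apart, 2 were at least 2-fold apart.

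Without the members sharing at least 5% of their words with another gene, an alternative chosen after seeing the data, the median log2 ratios were −0.033 for sterol and 0.32 for fatty acid genes and 4 members were at least 1.5-fold apart. Fasn reversed to 0.32 as a ratio of TPM, and with library totals Hmgcs1 reversed to −0.0153, Acaca to −0.0147, Fads1 to −0.0074 and Srebf2 to −0.0212, where the median over all genes was −0.09. Over the 6 scalings, filters and quantifications 27 of 32 members kept their direction wherever they had a value, Elovl6 having none with a mean count of at least 100. In the 5 settings with a test, 24 of 32 kept their call. The mean share of the leading transcript moved by more than the spread between libraries for 22 of 32 members in the second quantification. For these changes the cause was not tested beyond what each alternative leaves out.

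No paired analysis was possible because the study has 1 group. The lowest expected counts were those of Elovl6 (66) and Scd1 (94.0) in replicate 1 and of Elovl6 (85) and Tm7sf2 (111) in replicate 2.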
